A study of Mus musculus with 20 samples.

Results

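The roxadustat effect on each gene of Sca-1+ mouse kidney cells was compared between culture and the animal. The quantity described is the interaction of treatment and time, which is the log2 fold change of roxadustat over control at day 7 minus the log2 fold change of roxadustat over control at day 0. It rests on 12 of the 20 libraries of the series. Of these, 4 were roxadustat cells cultured to day 7, 4 were control cells cultured to day 7, 2 were roxadustat cells at day 0 and 2 were control cells at day 0. Sca-1, encoded by Ly6a, is found on the surface of progenitors and of some vessel and tubule cells, and the cells were isolated from digested kidney with magnetic beads against it. The labels give roxadustat as intraperitoneal injections at 33 mg/kg over 7 days, and the day 0 cells were taken fresh from such mice or from controls. The cultured cells were kept in serum-containing medium at 20% oxygen, and the series describes the medium of the roxadustat cultures as holding the drug. The dose in the medium, whether the donors of these cultures were injected, and the strain, sex and age of the mice are not given in the sources used here. The day 7 effect and the day 0 effect thus differ in how the drug was given as well as in the surroundings of the cells, and these cannot be told apart. Nothing in the labels ties a replicate to its own animal or culture, so a p here speaks of the spread among these libraries, which may be technical.

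Hypoxia-inducible factor (HIF) is a transcription factor whose alpha subunits are marked for degradation when oxygen-dependent prolyl hydroxylases modify them. Roxadustat, an anemia drug, blocks these hydroxylases, and HIF then accumulates in normal oxygen and raises genes of glucose uptake, glycolysis, pH control and blood vessel growth. In the kidney, HIF in interstitial cells near the tubules drives erythropoietin, the hormone of red cell formation.

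Total counts were 14632777 to 19903160 per library over the 12 libraries, and 18731 genes were tested. The spread between replicates, as a biological coefficient of variation, was 6.40% in roxadustat and 4.07% in control cells at day 7, and 9.01% in roxadustat and 16.2% in control cells at day 0. The larger spread at day 0 enters every interaction, so counts from a fit in which each group has a weight of its own (limma voom with group weights) are given beside those of the main fit (edgeR). The fresh libraries, whose cell type is labelled mesenchymal stem cell-like, held tubule transcripts at high levels, against that label. The 25 proximal tubule markers summed to 434.7 to 494.3 counts scaled to a common library total (CPM) in roxadustat and 227.9 to 235.0 CPM in control cells at day 7. At day 0 they summed to 89360 to 90220 CPM in roxadustat and 71300 to 88900 CPM in control cells. The day 0 effect was therefore measured in a mixture with tubule transcripts, and in such bulk samples fewer cells of a type and less RNA per cell cannot be told apart. Replicates 1 and 2 of the roxadustat cultures held more of the abundant tubule transcripts than replicates 3 and 4: Kap, an androgen-regulated proximal tubule gene, had 4.56, 20.6, 0.273 and 0.497 CPM there.

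The interaction passed the threshold of an adjusted p of 0.05 (edgeR) in 5418 of the 18731 genes, or 28.9%. It was higher in 2901 genes (15.5%), meaning a roxadustat effect further up in culture than in fresh cells, and lower in 2517 (13.4%). With group weights it was called in 4044 genes, 2230 higher and 1814 lower. Of the 5418 genes, 3280 kept the call and the sign without each of the 12 libraries in turn, and 2155 had an interaction of at least 2-fold. The effect at day 7 alone was called in 47.7% of genes, 24.1% higher and 23.6% lower in roxadustat cells. The effect at day 0 alone was called in 6.83%, 2.73% higher and 4.11% lower. The balance of directions depended on the scaling. With library size alone the day 0 effect was higher in 699 and lower in 524 genes, against 511 and 769 with TMM, and with DESeq2's size factors the interaction was higher in 2643 and lower in 2797.

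Most interaction calls came with an effect called in culture and none called in fresh cells, which holds for 4290 genes or 79.2% of the calls. Fresh cells had fewer libraries per group and a larger spread, so an effect not called there may still be present. In 239 genes the effect was called in fresh cells and not in culture, and in 265 in neither. Both effects were called in 876 genes. Of these, 410 moved in the same direction, 170 higher and 240 lower at both times, and 466 moved in opposite directions with the interaction called. The 466 are 2.49% of the genes tested, and 217 with group weights. Among them 260 were higher at day 7 and lower at day 0 in roxadustat cells, and 206 were lower at day 7 and higher at day 0. Across the 18731 genes the 2 effects had a Pearson r of -0.03, given as a description over genes, which are not independent replicates.

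**Figure D1:**
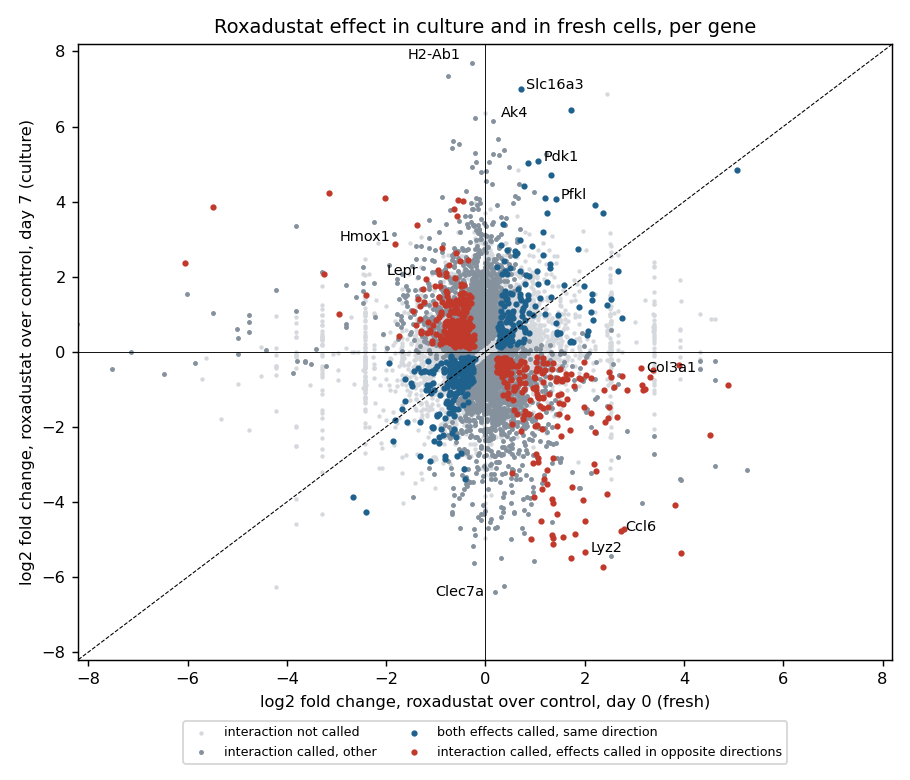
Each point is 1 of the genes tested, with the log2 fold change of roxadustat over control at day 7 on the vertical axis and at day 0 on the horizontal axis. The dashed line marks equal effects, colours give the calls (edgeR, adjusted p of 0.05), and 5 genes lie outside the axes. Points spread further along the vertical than along the horizontal axis, and Hmox1 and Lyz2 lie in the quadrants where the effects are opposite.

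The promoters of a pair of genes with very large positive interactions and of 1 antioxidant gene are shown because they carry copies of the motif bound by the factor of their pathway. The windows are RefSeq promoters of GRCm38.p6, 250 bases before to 50 after the start. Slc16a3 lies on chr11:120948817-120949116 (plus strand) and Pygl on chr12:70227634-70227933 (minus strand). Capitals mark ACGTG or GCGTG, the core of the HIF motif, on either strand, with 2 matches in each. Srxn1 lies on chr2:152105274-152105573 (plus strand). Capitals there mark TGACNNNGC or TGAGNNNGC, the core of the antioxidant response element, on either strand, with 3 matches.
Slc16a3: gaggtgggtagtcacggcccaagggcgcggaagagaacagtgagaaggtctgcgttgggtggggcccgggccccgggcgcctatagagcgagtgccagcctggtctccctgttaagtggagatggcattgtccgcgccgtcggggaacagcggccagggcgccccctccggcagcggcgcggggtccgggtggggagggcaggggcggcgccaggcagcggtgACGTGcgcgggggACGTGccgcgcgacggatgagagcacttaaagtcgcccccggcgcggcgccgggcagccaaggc
Pygl: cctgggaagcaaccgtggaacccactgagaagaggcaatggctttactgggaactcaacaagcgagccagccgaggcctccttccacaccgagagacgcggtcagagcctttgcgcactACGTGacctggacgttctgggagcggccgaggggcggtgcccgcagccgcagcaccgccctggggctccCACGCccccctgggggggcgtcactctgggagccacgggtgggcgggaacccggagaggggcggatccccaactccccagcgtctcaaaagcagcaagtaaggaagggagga
Srxn1: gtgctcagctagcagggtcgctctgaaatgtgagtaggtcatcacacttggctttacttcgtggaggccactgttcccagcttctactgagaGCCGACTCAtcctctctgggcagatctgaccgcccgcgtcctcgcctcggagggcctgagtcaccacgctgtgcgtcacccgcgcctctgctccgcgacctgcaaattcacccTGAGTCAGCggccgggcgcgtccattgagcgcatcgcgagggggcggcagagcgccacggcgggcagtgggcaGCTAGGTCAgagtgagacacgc
The HIF core was found in 20 of the 24 promoters matched among 33 HIF targets outside glycolysis (83.3%), and in 15 of the 21 matched among 22 glycolysis genes (71.4%). It was found in 3 of 17 macrophage markers (17.6%), in 20 of 31 cell cycle genes (64.5%) and in 43.8% of 27025 promoter windows. The antioxidant core was found in 7 of the 13 promoters matched among 16 NRF2 genes (53.8%) and in 27.7% of windows. It was also found in 7 of 17 macrophage markers (41.2%) and 8 of 24 HIF targets outside glycolysis (33.3%). In cell cycle genes it was found in 10 of 31 (32.3%), and in glycolysis genes in 6 of 21 (28.6%). A match describes letters in the window and is not evidence of binding.

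HIF target genes had the highest median interaction of the 30 lists. Of 33 targets outside glycolysis, the interaction was higher in 29 and lower in 2, against 15.5% and 13.4% of the genes tested. Their median was 1.74 on the log2 scale, against 0.05 over the genes tested. The count of 29 was the same with group weights. In culture 33 of 33 were higher in roxadustat cells, against 24.1% of the genes tested. In fresh cells 14 were higher and 2 lower (9 and 2 with group weights), against 2.73% and 4.11%. Their summed level was 9325 to 9904 CPM in the roxadustat arm and 3469 to 3566 CPM in the controls at day 7, and 5055 to 5715 CPM in the roxadustat arm and 5158 to 5306 CPM in the controls at day 0. The sum thus separated the arms in culture, while at day 0 the control range lay within the roxadustat range. A large part of the day 0 sum was Ndrg1, not called at day 0, with 2404 CPM in roxadustat and 2476 CPM in control fresh cells. The day 0 sum therefore says little about the other members.

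Ak4, a mitochondrial adenylate kinase, had 228, 227, 223 and 200 CPM in roxadustat and 3.30, 2.90, 3.03 and 3.11 CPM in control cultures. In fresh cells it had 414 and 493 CPM in roxadustat and 329 and 481 CPM in controls. The arms were far apart in culture and overlapped in fresh cells. The interaction was 5.99 ± 0.17 (SE, adjusted p = 1.89e-18, edgeR). Roxadustat cultures lay below the fresh cells, and control cultures far below both.
Vegfa, the main growth factor of blood vessels, had 338, 315, 351 and 332 CPM in roxadustat and 65.0, 62.3, 61.4 and 62.0 CPM in control cultures, and 336 and 364 CPM in roxadustat and 316 and 307 CPM in control fresh cells. Roxadustat cultures overlapped the fresh libraries, and control cultures lay below them. The interaction was 2.25 ± 0.08 (adjusted p = 3.79e-17, edgeR), and the day 0 effect of 0.17 did not pass the test (adjusted p = 0.149).
Car12, a carbonic anhydrase at the cell surface, moved in opposite directions. It had 26.3, 24.7, 22.8 and 24.7 CPM in roxadustat and 1.42, 1.23, 1.57 and 1.82 CPM in control cultures. In fresh cells it had 256 and 259 CPM in roxadustat and 380 and 323 CPM in controls. The day 7 effect was 4.02 and the day 0 effect -0.45, both called, with an interaction of 4.47 ± 0.14 (adjusted p = 6.35e-19, edgeR).

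Bnip3, a mitophagy receptor, averaged 227 ± 12.8 CPM in roxadustat and 7.01 ± 0.65 CPM in control cultures (SD, n = 4 each), and 122 ± 5.66 CPM in roxadustat and 67.0 ± 9.57 CPM in control fresh cells (SD, n = 2 each). Its interaction was 4.15. Adm, the vasodilator adrenomedullin, had an interaction of 3.75 from a day 7 effect of 3.46 and a day 0 effect of -0.28 that did not pass the test. Car9, another carbonic anhydrase, was called at both times, with effects of 3.69 at day 7 and 2.37 at day 0, so its interaction was 1.32.
The 2 members with a lower interaction were Lox and Loxl2, lysyl oxidases that crosslink collagen. Lox had effects of 1.24 at day 7 and 2.45 at day 0, and Loxl2 of 0.26 and 1.71. These 2 were higher in roxadustat cells at both times and more so in fresh cells. The 2 members without a call were Angptl4, at 0.70 (adjusted p = 0.192), and Mgarp, at 4.88 (adjusted p = 0.103), which averaged 0.445 CPM in the roxadustat arm and 0.0329 CPM in the controls at day 0.

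Of 22 genes of glycolysis and glucose uptake the interaction was higher in 20 and lower in none, with a median of 1.71 and the same 20 and 0 with group weights. In culture 20 were higher and 2 lower in roxadustat cells, and in fresh cells 10 were higher and 3 lower. The summed level was 11190 to 11980 CPM in the roxadustat arm and 2788 to 2936 CPM in the controls at day 7, and 5729 to 5976 CPM in the roxadustat arm and 3648 to 3805 CPM in the controls at day 0. The arms did not overlap at either time.

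Slc16a3, the lactate exporter MCT4, had 498, 468, 505 and 459 CPM in roxadustat and 3.75, 3.90, 4.22 and 3.22 CPM in control cultures. The fresh cells had 4.64 and 5.48 CPM in roxadustat and 3.31 and 2.83 CPM in controls. High levels occurred in the roxadustat cultures and in none of the other 8 libraries. The day 7 effect was 128-fold and the day 0 effect 1.64-fold, with an interaction of 6.28 ± 0.24 (adjusted p = 5.73e-17, edgeR). The day 0 effect was not called with group weights (adjusted p = 0.399).
Pdk1, a kinase that inhibits pyruvate dehydrogenase, had 330, 308, 306 and 275 CPM in roxadustat and 8.54, 8.31, 8.82 and 10.2 CPM in control cultures. The fresh cells had 216 and 207 CPM in roxadustat and 103 and 99.6 CPM in controls. It was higher in roxadustat cells at both times. The effect was 33.9-fold in culture and 2.09-fold in fresh cells, with an interaction of 4.02 ± 0.12 (adjusted p = 1.85e-19, edgeR).
Pfkl, the liver form of phosphofructokinase, had 817, 780, 802 and 741 CPM in roxadustat and 49.2, 45.8, 46.0 and 44.6 CPM in control cultures. At day 0 it had 287 and 259 CPM in roxadustat and 109 and 94.2 CPM in controls. Its day 0 effect of 1.42 was the highest of the 22 genes at that time, and the interaction was 2.66 ± 0.11 (adjusted p = 8.27e-17, edgeR).
Slc2a1, the glucose transporter GLUT1, averaged 235 CPM in roxadustat and 45.6 CPM in control cultures, and 82.7 CPM in roxadustat and 98.5 CPM in control fresh cells. Its day 0 effect of -0.25 did not pass the test (adjusted p = 0.0627) and its interaction was 2.61.
Members lower in roxadustat fresh cells were Pfkfb3, a bifunctional regulator of phosphofructokinase (-0.79), Hk1, a hexokinase (-0.49), and Pfkm, the muscle form of phosphofructokinase (-0.38). The 3 were higher in roxadustat cultures, with 2.11, 1.27 and 0.29. Eno2 and Pfkfb4, the 2 genes without an interaction call, had day 7 effects of -0.43 and -0.51.
Pygl, the liver form of glycogen phosphorylase and no member of the list, had 111, 109, 104 and 103 CPM in roxadustat and 3.30, 2.79, 3.84 and 4.08 CPM in control cultures. It had 55.7 and 61.1 CPM in roxadustat and 76.5 and 64.0 CPM in control fresh cells. The day 0 effect of -0.27 did not pass the test (adjusted p = 0.156), and the interaction was 5.19 ± 0.15 (adjusted p = 1.85e-19, edgeR).

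**Figure D2:**
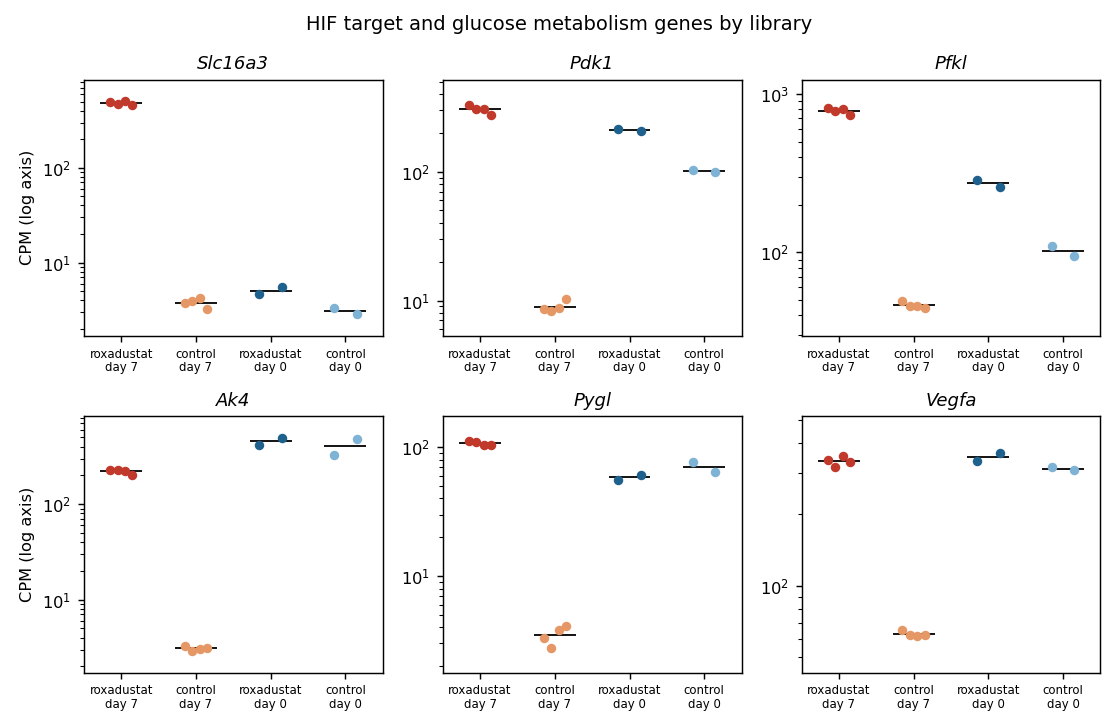
CPM on a log axis for 6 HIF target and glucose metabolism genes, with 1 point per library and a line at each group mean (n = 4 per group at day 7, n = 2 at day 0). Slc16a3 stood high in the roxadustat cultures alone, while for Ak4, Pygl and Vegfa the control cultures stood low.

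Among 11 genes of oxygen sensing the interaction was higher in 4 and lower in 1, against 15.5% and 13.4% of the genes tested. Egln1, the main prolyl hydroxylase of HIF, averaged 233 CPM in roxadustat and 52.5 CPM in control cultures, and 98.4 CPM in roxadustat and 74.8 CPM in control fresh cells, with an interaction of 1.75 ± 0.09 (adjusted p = 1.19e-14, edgeR). Egln3, a prolyl hydroxylase that HIF induces, averaged 31.5 CPM in roxadustat and 1.47 CPM in control cultures, and 10.5 CPM in roxadustat and 6.15 CPM in control fresh cells, with an interaction of 3.63 ± 0.22. Egln2, the third prolyl hydroxylase, had an interaction of 0.00 (95% interval of the fit -0.25 to 0.26).
Hif1a, the gene of the HIF-1 alpha subunit, was lower in roxadustat cultures, at 144, 153, 145 and 139 CPM against 277, 283, 278 and 284 CPM in controls. Fresh cells held 182 and 177 CPM in roxadustat and 192 and 224 CPM in controls. The interaction was -0.74 ± 0.09 (adjusted p = 3.2e-07, edgeR). Epas1, the gene of HIF-2 alpha, had an interaction of -0.92 ± 0.37 that did not pass the test (adjusted p = 0.0751). It was called lower with DESeq2 (adjusted p = 0.00807), with the 12 libraries alone (0.000675, edgeR) and with no filter on low counts (9.38e-07, edgeR), and in no other setting, where the adjusted p was 0.0563 to 0.212. Hif3a, another alpha subunit, and Arnt2, a partner subunit, were the other called members. Hif3a averaged 0.301 CPM in roxadustat cultures and had no count in control cultures, and 1.48 CPM in roxadustat and 1.15 CPM in control fresh cells, so its fold is not given.
Epo (ENSMUSG00000029711) had 1 count in replicate 2 of the roxadustat and 1 in replicate 2 of the control cultures and 0 in the other 10 libraries. It was not tested, and an interaction in it was not detectable at this depth.

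Antioxidant and pentose phosphate genes, many of them targets of the stress factor NRF2, were higher in interaction in 16 of 16, with a median of 1.33 (15 of 16 with group weights). In culture 16 of 16 were higher in roxadustat cells, and in fresh cells 1 was higher (Me1, malic enzyme) and 1 lower (Srxn1). The members summed to 5895 to 6299 CPM in the roxadustat arm and 2744 to 2778 CPM in the controls at day 7, and 4243 to 4673 CPM in the roxadustat arm and 3982 to 4706 CPM in the controls at day 0. Srxn1, a sulfiredoxin that repairs oxidized peroxiredoxins, had 372, 340, 362 and 326 CPM in roxadustat and 134, 125, 132 and 132 CPM in control cultures. The day 0 libraries held 154 and 164 CPM in roxadustat and 228 and 218 CPM in controls, so the order of the arms was reversed. The interaction was 1.91 ± 0.09 (adjusted p = 1.85e-15, edgeR).
Gsta4, a glutathione transferase for lipid peroxidation products, averaged 313 CPM in roxadustat and 42.2 CPM in control cultures, and 35.9 CPM in roxadustat and 36.1 CPM in control fresh cells. Its interaction of 2.90 ± 0.16 (adjusted p = 2.79e-12, edgeR) was the highest in the list, though reads of its paralogs may be shared. Tkt, a transketolase of the pentose phosphate pathway, had an interaction of 1.51 and Taldo1, its transaldolase, of 1.27. Nfe2l2, the gene of NRF2, named here after its values were seen, had -0.04 (adjusted p = 0.768).

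Hmox1, the heme oxygenase that breaks heme down to iron, carbon monoxide and biliverdin, had both effects large and in opposite directions. It had 1506, 1429, 1476 and 1443 CPM in roxadustat and 217, 197, 202 and 190 CPM in control cultures. At day 0 there were 62.9 and 58.7 CPM in roxadustat and 210 and 222 CPM in controls. Controls were alike at both times, and the roxadustat cells lay above them in culture and below them when fresh. The effect was 7.26-fold higher at day 7 (log2 2.86) and 3.56-fold lower at day 0 (log2 -1.83), with an interaction of 4.69 ± 0.17 (adjusted p = 9.42e-16, edgeR).
Of 20 iron and heme genes the interaction was higher in 8 and lower in 3 (6 and 3 with group weights), against 15.5% and 13.4% of the genes tested. The median was 0.08, near that of the genes tested. Tfrc, the transferrin receptor, averaged 204 CPM in roxadustat and 118 CPM in control cultures, and 251 CPM in roxadustat and 321 CPM in control fresh cells, with effects of 0.79 and -0.35 and an interaction of 1.14. Cp, the ferroxidase ceruloplasmin, also moved in opposite directions, with 0.47 and -0.49. Fth1, the ferritin heavy chain, had an interaction of 0.55, and Ftl1, the ferritin light chain, of 0.00.

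Macrophage transcripts made up the group furthest below the rest. The interaction was lower in 21 of 22 markers and higher in none, with a median of -4.64 (21 lower with group weights). In culture 21 were lower and 1 higher in roxadustat cells, and in fresh cells 13 were higher and none lower (8 and 0 with group weights). Effects were called in opposite directions for 12 of the 22 (8 with group weights), against 2.49% of the genes tested. Summed over the list, the level was 48.4 to 53.3 CPM in the roxadustat arm and 486.8 to 498.8 CPM in the controls at day 7, and 296.8 to 372.1 CPM in the roxadustat arm and 167.2 to 181.3 CPM in the controls at day 0. No member was without counts in any group.
Lyz2, the lysozyme of macrophages, had 6.29, 6.09, 5.89 and 5.74 CPM in roxadustat and 242, 244, 242 and 238 CPM in control cultures. When fresh, the cells held 50.5 and 61.0 CPM in roxadustat and 12.2 and 15.3 CPM in controls. The arms did not overlap at either time and their order was opposite. It was 40.2-fold lower at day 7 and 4.04-fold higher at day 0, with an interaction of -7.34 ± 0.14 (adjusted p = 1.06e-23, edgeR).
Ccl6, a chemokine of myeloid cells outside the marker list, had 2.64, 3.12, 2.51 and 3.21 CPM in roxadustat and 73.3, 83.7, 78.2 and 79.2 CPM in control cultures, and 17.7 and 17.4 CPM in roxadustat and 2.99 and 2.30 CPM in control fresh cells. Its interaction was -7.49 ± 0.19 (adjusted p = 1.02e-20, edgeR). C1qa, a chain of complement C1q, averaged 0.859 CPM in roxadustat and 26.7 CPM in control cultures, and 22.4 CPM in roxadustat and 7.64 CPM in control fresh cells, with an interaction of -6.50. Adgre1, the gene of the F4/80 antigen, had -6.49, C1qb -6.33 and C1qc -6.23.
Clec7a, the beta-glucan receptor dectin-1, differed from these because its arms overlapped in fresh cells. It averaged 0.717 CPM in roxadustat and 61.3 CPM in control cultures, and 3.83 CPM in roxadustat and 3.33 CPM in control fresh cells, with an interaction of -6.61 ± 0.36 (adjusted p = 4.07e-13, edgeR). Cd14, an endotoxin co-receptor that fibroblasts also express, was the member without a call, at -0.25, and was higher in roxadustat cells at both times.

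Matrix genes were also lower in roxadustat cultures and higher in fresh roxadustat cells by their medians, which were -0.72 and 1.15. Of 31 matrix genes the interaction was lower in 23 and higher in 2, with a median of -2.15 (21 and 2 with group weights). In culture 22 were lower and 2 higher in roxadustat cells, and in fresh cells 20 were higher and 1 lower (15 and 1 with group weights). Effects were called in opposite directions for 18 (16 with group weights). The summed level of the list was 29250 to 33230 CPM in the roxadustat arm and 35700 to 37200 CPM in the controls at day 7. At day 0 it was 4296 to 4585 CPM in the roxadustat arm and 3841 to 5308 CPM in the controls. A large part of the day 0 sum was Timp3, an inhibitor of matrix proteases and the 1 member called lower in fresh roxadustat cells. It averaged 1573 CPM in roxadustat and 2389 CPM in control fresh cells. The day 0 sum therefore says little about the other members.
Col6a3, a collagen VI chain, had 23.1, 19.9, 28.2 and 22.4 CPM in roxadustat and 267, 256, 316 and 300 CPM in control cultures. The fresh cells had 38.1 and 70.4 CPM in roxadustat and 13.4 and 19.0 CPM in controls. The interaction was -5.35 ± 0.28 (adjusted p = 4.28e-10, edgeR). Loxl1, which crosslinks elastin, had 108, 106, 122 and 118 CPM in roxadustat and 194, 190, 196 and 190 CPM in control cultures, and 13.4 and 18.1 CPM in roxadustat and 4.80 and 6.32 CPM in control fresh cells. The effect was -0.76 in culture and 1.49, the larger one, in fresh cells, with an interaction of -2.26 ± 0.17. The same was so for Postn, the matricellular protein periostin, at -0.35 in culture and 3.90 in fresh cells.
The 2 members with a higher interaction were Timp3 (1.67) and Col12a1, a fibril-associated collagen (0.81).

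Of 24 markers of interstitial fibroblasts the interaction was lower in 16 and higher in 1, with a median of -1.51 (14 and 1 with group weights). In culture 14 were lower and 2 higher in roxadustat cells, and in fresh cells 12 were higher and none lower (7 and 0 with group weights). Col3a1, a fibrillar collagen, had 4045, 3838, 4385 and 3684 CPM in roxadustat and 5319, 5212, 5690 and 5452 CPM in control cultures, and 918 and 1590 CPM in roxadustat and 115 and 171 CPM in control fresh cells. It was 1.36-fold lower in culture and 8.76-fold higher in fresh roxadustat cells, with an interaction of -3.57 ± 0.26 (adjusted p = 7.52e-09, edgeR).
Pdgfra, a receptor that marks fibroblasts, averaged 5.50 CPM in roxadustat and 13.0 CPM in control cultures, with an interaction of -1.66 ± 0.38 (adjusted p = 0.00386, edgeR). Its fresh controls had 8.83 and 27.6 CPM, on both sides of the 22.5 and 26.0 CPM of the fresh roxadustat cells. Pdgfrb, the receptor of pericytes and fibroblasts, had -0.84 ± 0.18 (adjusted p = 0.000605), a call that was lost with group weights (0.0676) and without replicate 2 of the fresh roxadustat cells (0.0749). Nt5e, the surface enzyme CD73 of Epo-producing fibroblasts, had 356, 334, 327 and 308 CPM in roxadustat and 338, 356, 334 and 343 CPM in control cultures. Its interaction of -0.36 ± 0.11 (adjusted p = 0.0118) was lost without replicate 1 of the fresh roxadustat cells (0.239) or of the fresh controls (0.0871). Cd34, a sialomucin of progenitors and vessels, was the member with a higher interaction, at 1.36.
Among 17 pericyte and smooth muscle genes the interaction was lower in 8 and higher in 1 (6 and 0 with group weights). Over the genes tested it was lower in 13.4% and higher in 15.5%. Cspg4, the NG2 proteoglycan, averaged 10.3 CPM in roxadustat and 89.9 CPM in control cultures, and 18.1 CPM in roxadustat and 23.2 CPM in control fresh cells, with an interaction of -2.77.

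**Figure D3:**
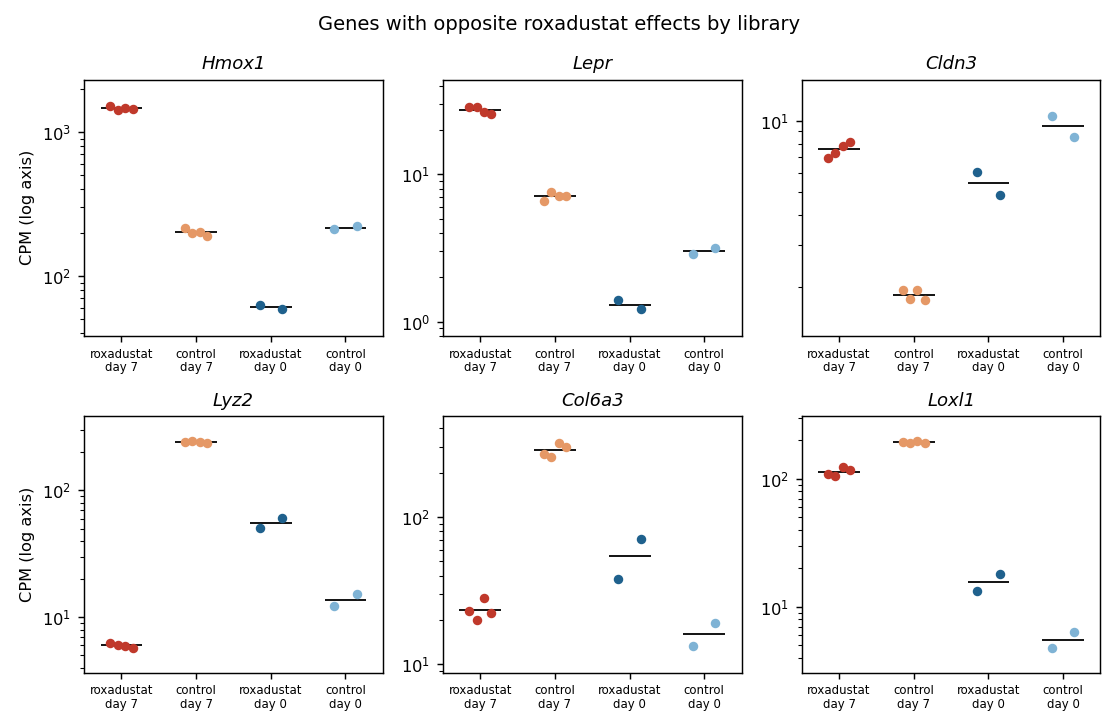
CPM on a log axis for 6 genes whose roxadustat effects were called in opposite directions, with 1 point per library and a line at each group mean (n = 4 per group at day 7, n = 2 at day 0). The upper row was higher in roxadustat cultures and lower in fresh roxadustat cells, and the lower row the reverse. The day 0 effect of Lepr was not called with group weights (adjusted p = 0.0899).

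Epithelial genes ran the other way. Of 21 general epithelial genes the interaction was higher in 19 and lower in none, with a median of 1.53 (18 and 0 with group weights). In culture 18 were higher and none lower in roxadustat cells, and in fresh cells 10 were lower and none higher. Effects were called in opposite directions for 9, with and without group weights. Their summed level was 810.4 to 847.5 CPM in the roxadustat arm and 424.3 to 439.6 CPM in the controls at day 7, and 3508 to 3590 CPM in the roxadustat arm and 4298 to 4382 CPM in the controls at day 0.
Cldn3, a tight junction protein, had 6.96, 7.32, 7.85 and 8.14 CPM in roxadustat and 1.94, 1.78, 1.95 and 1.77 CPM in control cultures, and 6.09 and 4.87 CPM in roxadustat and 10.4 and 8.56 CPM in control fresh cells. Its interaction was 2.81 ± 0.21 (adjusted p = 6.68e-11, edgeR). Cdh16, the kidney cadherin, averaged 207 CPM in roxadustat and 84.7 CPM in control cultures, and 1659 CPM in roxadustat and 2032 CPM in control fresh cells, with an interaction of 1.58 ± 0.09. The 2 members without a call were Pax2, a kidney transcription factor (0.70), and Prom1, a membrane protein of progenitors (-0.07).

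Of 25 proximal tubule genes the interaction was higher in 10 and lower in 1 (median 0.87), against 15.5% and 13.4% of the genes tested. Lrp2, the endocytosis receptor megalin, had 163, 169, 176 and 173 CPM in roxadustat and 62.8, 65.8, 61.5 and 64.6 CPM in control cultures, and 10060 and 9642 CPM in roxadustat and 8342 and 9141 CPM in control fresh cells. Its interaction of 1.25 ± 0.12 (adjusted p = 6.51e-09, edgeR) thus rests on levels in culture that are a small part of those in fresh cells. Ggt1, a brush border enzyme, had 2.11 and Hnf4a, a transcription factor of the proximal tubule, 1.60. Of 21 genes of loop, distal tubule and collecting duct, 5 were higher and 1 lower, against the same 15.5% and 13.4%. The 5 became 3 without replicate 2 or replicate 4 of the roxadustat cultures or replicate 1 of the fresh roxadustat cells. In culture that list summed to 8.18 to 21.0 CPM in roxadustat and 21.8 to 26.7 CPM in control cells. Replicate 2 of the roxadustat cultures was the highest of its group. Most of the control sum came from Atp6v0d2, which averaged 1.68 CPM in roxadustat and 17.5 CPM in control cultures. Atp6v0d2 was the 1 member with a lower interaction and the 1 called lower in culture, where 4 others were called higher. Without replicates 1 and 2 of the roxadustat cultures, a setting chosen after seeing the data, the interactions of Kap, Umod and Slc34a1, which were 0.31, 1.00 and 0.92 and not called, changed sign and were called lower (-3.73, -4.42 and -3.96), and the proximal tubule list held 6 lower calls. The part of these traces in the tubule results was not tested beyond that.
Of 11 genes of injured tubules, 7 were higher and 1 lower (6 and 1 with group weights), against 15.5% and 13.4% of the genes tested. Clu, the chaperone clusterin, averaged 115 CPM in roxadustat and 39.1 CPM in control cultures, and 366.5 CPM in roxadustat and 510.5 CPM in control fresh cells, with an interaction of 2.03. The lower one was Vim, the intermediate filament vimentin, at -1.23.

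Many endothelial genes were lower in fresh roxadustat cells, and in culture they were mixed. Of 23 genes the interaction was higher in 11 and lower in 4 (10 and 4 with group weights, and 7 higher without replicates 1 and 2 of the roxadustat cultures). In culture 7 were higher and 6 lower, against 24.1% and 23.6% of the genes tested. In fresh cells 16 were lower and none higher, against 4.11% and 2.73%. The members summed to 74.3 to 84.4 CPM in the roxadustat arm and 121.9 to 128.2 CPM in the controls at day 7, and 251.4 to 270.0 CPM in the roxadustat arm and 428.0 to 471.9 CPM in the controls at day 0. Flt1 alone averaged 19.92 CPM in roxadustat and 67.05 CPM in control cultures, a large part of the sum at day 7.
Tek, the angiopoietin receptor, had 3.22, 3.59, 2.78 and 2.76 CPM in roxadustat and 0.259, 0.725, 0.271 and 0.698 CPM in control cultures, and 19.1 and 19.5 CPM in roxadustat and 27.3 and 30.9 CPM in control fresh cells. Its interaction was 3.21 ± 0.28 (adjusted p = 6.05e-10, edgeR). Esam, an adhesion molecule of endothelial junctions, had 3.13. Pecam1, a defining endothelial marker named after its values were seen, averaged 0.58 CPM in roxadustat and 0.19 CPM in control cultures, so its interaction of 2.42 rests on traces. The 4 lower ones were Vwf, Emcn, Flt1 and S1pr1, at -2.05, -1.67, -0.94 and -0.83.

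Most cell cycle genes were lower in roxadustat cultures, and few were called in fresh cells. Of 38 the interaction was lower in 33 and higher in none, with a median of -2.0 (32 and 0 with group weights). In culture 37 were lower in roxadustat cells, and in fresh cells 2 were higher and 2 lower (none with group weights). Summed over the list, the level was 653.2 to 680.6 CPM in the roxadustat arm and 1663 to 1683 CPM in the controls at day 7, and 234.9 to 272.6 CPM in the roxadustat arm and 209.2 to 276.4 CPM in the controls at day 0. The roxadustat cultures thus lay between the fresh cells and the control cultures.
Mcm6, a subunit of the replicative helicase, had 22.5, 21.9, 20.5 and 21.7 CPM in roxadustat and 76.3, 81.1, 78.3 and 78.4 CPM in control cultures. At day 0 it had 33.6 and 30.0 CPM in roxadustat and 35.8 and 31.7 CPM in controls, which overlap. The interaction was -1.77 ± 0.11 (adjusted p = 1.91e-12, edgeR). Cenpe, a mitotic kinesin, averaged 14.8 CPM in roxadustat and 60.6 CPM in control cultures, and 7.00 CPM in roxadustat and 4.17 CPM in control fresh cells, with an interaction of -2.77 ± 0.27. Mki67, the proliferation marker Ki-67, named after its values were seen, averaged 21.9 CPM in roxadustat and 108 CPM in control cultures. Its fresh controls had 15.2 and 3.88 CPM, and its interaction was -2.44 ± 0.41 (adjusted p = 0.000252).

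**Figure D4:**
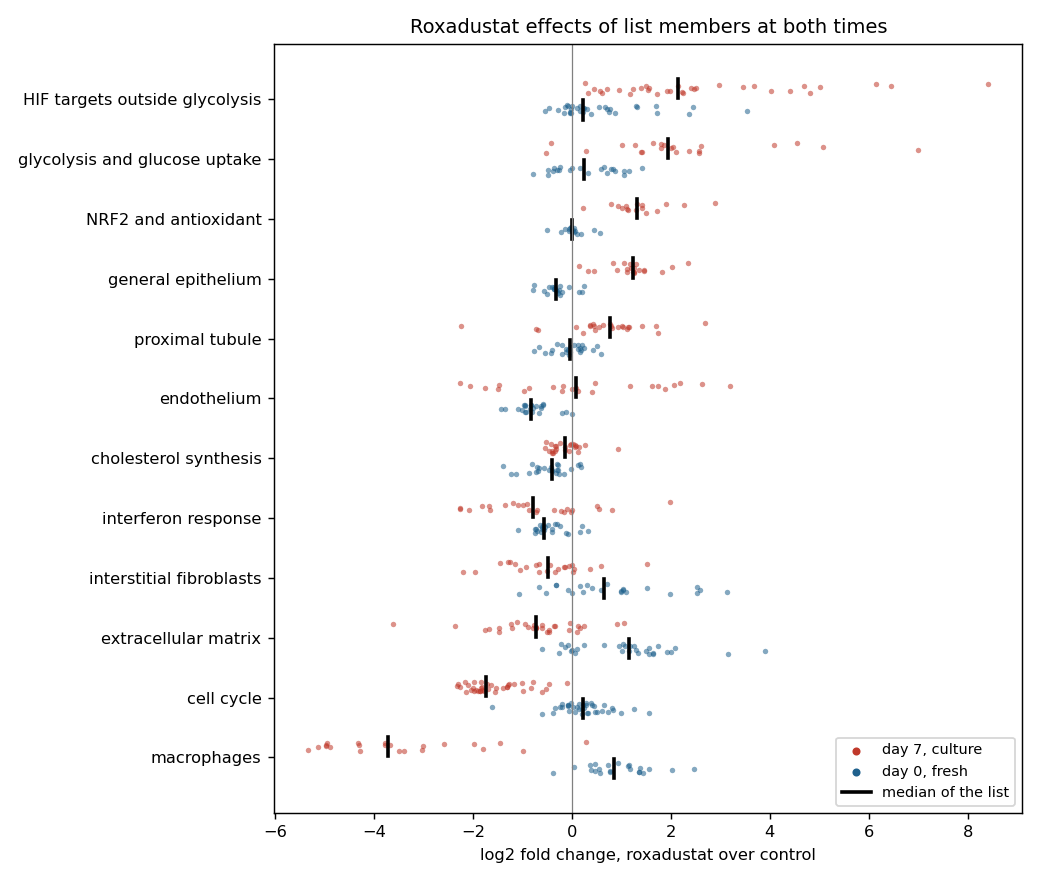
Log2 fold change of roxadustat over control for the tested members of 12 gene lists, with day 7 above day 0 in each row and a black line at the median of the list. Macrophage, matrix and fibroblast genes lay below 0 at day 7 and above it at day 0 by their medians, and general epithelial genes the reverse, while NRF2 and cell cycle genes shifted at day 7 with day 0 medians near 0.

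Ly6a, the gene of Sca-1 by which the cells were sorted, had 525, 518, 486 and 478 CPM in roxadustat and 172, 166, 158 and 158 CPM in control cultures, and 668 and 715 CPM in roxadustat and 550 and 496 CPM in control fresh cells. It was higher in roxadustat cells at both times, 3.07-fold in culture and 1.32-fold in fresh cells. The interaction was 1.22 ± 0.11 (adjusted p = 1.22e-09, edgeR), and reads of related Ly6 genes may be shared. Lepr, the leptin receptor of stromal progenitors, had 28.8, 28.5, 26.7 and 25.6 CPM in roxadustat and 6.60, 7.58, 7.09 and 7.14 CPM in control cultures, and 1.39 and 1.22 CPM in roxadustat and 2.86 and 3.16 CPM in control fresh cells, with an interaction of 3.14 ± 0.23. Cxcl12, a chemokine that retains progenitors, averaged 3.98 CPM in roxadustat and 44.0 CPM in control cultures, and 28.9 CPM in roxadustat and 36.1 CPM in control fresh cells, with an interaction of -3.14.

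Of 7 genes of MHC class II the interaction was higher in 2, H2-Ab1 and Ciita, against 15.5% of the genes tested. It was higher in 1 without replicate 3 of the roxadustat cultures or replicate 1 of the fresh controls, and in 1 with group weights. H2-Ab1, a beta chain, had 31.0, 26.1, 28.7 and 26.1 CPM in roxadustat and 0.194, 0.0558, 0.162 and 0.107 CPM in control cultures, where it had 9 counts in all. Fresh cells held 53.1 and 31.6 CPM in roxadustat and 63.8 and 39.0 CPM in controls. Its interaction was 7.97 ± 0.47 (adjusted p = 6.66e-09, edgeR). H2-Aa, the alpha chain that pairs with it, averaged 0.112 CPM in roxadustat and 0.0275 CPM in control cultures, and its interaction of 1.65 did not pass the test (adjusted p = 0.365). Cd74, the invariant chain of the same complex, had 1.33 (adjusted p = 0.176), which was called without replicate 1 of the fresh roxadustat cells (1.83, adjusted p = 0.00565, edgeR) and with no filter on low counts (0.0091). In the settings where it was not called the adjusted p was 0.105 to 0.340. Both partners averaged 0.515 CPM or less in either culture group. Whether reads of related genes were counted at H2-Ab1 was not tested.

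The remaining lists are set against the shares over the genes tested, where the interaction was higher in 15.5% and lower in 13.4% of the genes tested. In 18 histone and DNA dioxygenases, which use the same cosubstrate as the HIF hydroxylases, the interaction was higher in 8 and lower in none (7 and 0 with group weights), with a median of 0.33. Kdm4b, a histone demethylase, had 1.41 and Kdm3a, which is also in the HIF list, 0.98. In 25 cholesterol genes it was higher in 9 and lower in 2 (15 higher without replicate 2, and 5 lower without replicate 1, of the fresh controls), and 12 were lower in fresh roxadustat cells (7 with group weights).
In 24 interferon genes the interaction was higher in 4 and lower in 7 (7 higher without replicate 2, and 11 lower without replicate 1, of the fresh controls). Ifit3 had 2.54 and Gbp3 -1.74. In 18 inflammatory genes 7 were higher, among them Icam1 (1.95) and Lif (1.52), and 7 lower, among them the chemokine Ccl2 (-2.63). Without replicate 2 of the fresh controls 4 of them were higher. In 20 genes of the amino acid stress response 6 were higher, led by Gdf15, a stress cytokine (2.79), and 4 lower, led by Psat1, an enzyme of serine synthesis (-1.12). With group weights 4 were higher and 2 lower.
In 25 nuclear genes of the respiratory chain 1 was lower and none higher (2 lower without replicate 2 of the control cultures, and 5 lower without replicate 1 of the fresh controls), and in 7 mitochondrially encoded ones 2 were lower (5 with the 12 libraries alone, and 6 with no filter on low counts). mt-Co1, a subunit of cytochrome oxidase, had -1.04 ± 0.14 (adjusted p = 1.29e-06, edgeR). In 19 genes of fatty acid oxidation 7 were higher and 1 lower (3 higher without replicate 1 of the roxadustat cultures or replicate 2 of the fresh roxadustat cells, and 4 higher without replicate 1 of the control cultures or replicate 2 of the fresh controls). In 28 immediate early and heat shock genes 9 were higher and 5 lower (3 lower without replicate 2 of the fresh roxadustat cells), in 10 stromal progenitor genes 4 and 3, and in 8 podocyte genes 3 and 2. The 2 lower podocyte genes became 1 without replicate 2 or 4 of either set of cultures, without either fresh roxadustat library, or without replicate 1 of the fresh controls. No interaction was called among 6 erythroid and 3 neutrophil markers (edgeR), and 1 of 5 lymphocyte markers was lower. With group weights 1 erythroid marker was lower, and 1 neutrophil and 1 lymphocyte marker were higher. In culture these markers stood near the floor, and an interaction was hardly detectable. The erythroid sum was 0.624 to 2.76 CPM in roxadustat and 1.29 to 1.56 CPM in control cultures. The neutrophil sum was at most 0.194 CPM there. At day 0 the erythroid sum was 136 to 137 CPM in roxadustat and 76.7 to 96.2 CPM in control cells. In fresh cells 3 erythroid markers were higher and 2 neutrophil markers lower (4 and 1 with group weights).

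In 51 genes the effect was called in the same direction at both times, at least 1.5-fold at each, without an interaction call. Those whose 95% interval lay closest to 0 include Klf4, a transcription factor of epithelial and vessel cells, with 23.6, 23.8, 25.2 and 27.2 CPM in roxadustat and 14.6, 14.7, 15.2 and 14.2 CPM in control cultures, and 173 and 193 CPM in roxadustat and 114 and 114 CPM in control fresh cells. Its effects were 1.70-fold and 1.60-fold, and the interaction was 0.09 (95% interval -0.17 to 0.35). Irf1, an interferon regulatory factor, averaged 19.4 CPM in roxadustat and 29.1 CPM in control cultures, and 199 CPM in roxadustat and 306 CPM in control fresh cells, with an interaction of 0.03. Shmt1, a folate enzyme, had 0.00, Hspa12a -0.06 and Tmem86a -0.15, and these 3 were lower in roxadustat cells. Rasl12 had -0.02 and Pltp, a phospholipid transfer protein that shares 19.3% of its exon length with Ctsa, 0.03, and these were higher. For these 7 genes the levels themselves differed between culture and fresh cells, and Rasl12, for one, averaged 92.0 CPM in roxadustat cultures and 3.51 CPM in fresh roxadustat cells.

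The levels in the 4 groups show where the cultures stood relative to fresh cells. Of 903 genes whose interaction and day 7 effect were both higher, with a day 7 effect of at least 2-fold, the control cultures lay below the 4 fresh libraries in 674, or 74.6%, against 38.3% of the genes tested. The roxadustat cultures also lay below the 4 fresh libraries in 465 (51.5%, against 36.5%) and above them in 262 (29.0%, against 36.3%). Of 765 genes whose interaction and day 7 effect were both lower, again at least 2-fold, the control cultures lay above the 4 fresh libraries in 452 (59.1%, against 36.4%). The roxadustat cultures lay above them in 291 and below them in 352. Since control cultures enter both the choice of these genes and their levels, these shares describe the genes and test nothing.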

How the data were processed

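The counts per Ensembl gene were deposited by the authors, 1 file per library. Per the submitters' processing notes, bcl2fastq, STAR 2.5.2a, featureCounts 1.5.0-p1 and mm10 were used. The annotation release is not given in the sources used here. Libraries were non-stranded per the labels' protocols, so reads of a gene and its antisense partner cannot be told apart. Each file lists 47729 genes, of which 47224 were matched to GENCODE M21 (GRCm38).

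In R 4.3.3, edgeR 4.0.16 fitted 1 model of 20 libraries in 6 groups (filterByExpr, TMM scaling, robust quasi-likelihood F test, Benjamini-Hochberg over the 18731 genes tested, threshold 0.05). The 8 libraries of day 21 inform the spread and also enter the filter on low counts and the scaling. With the 12 libraries alone 5558 interactions were called (edgeR), and 95.3% of the main calls were kept in direction. Levels are TMM-scaled CPM, and SEs come from each log2 value and its F statistic. Alternatives used limma 3.58.1 and DESeq2 1.42.0, and the steps were tested on simulated data. Counting limits cover counting error only.

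Members and lists were chosen with earlier results of these data known. The text names genes whose interaction was called, held without each library and had at least 5 CPM in 1 group. These are the 8 highest and 8 lowest interactions, the 5 smallest p, and the 6 opposite genes in each direction with the largest smaller effect. The rule also takes the 4 members of a list with the smallest p, 8 genes with like effects at both times and 12 fixed genes. Further list members are given as the exceptions or examples of their list, after their values were seen. Left out are Glt1d1, Serpina1f, Gsta2, Hsd17b2 and H2-Q6 (few counts or close paralogs) and 1 predicted gene with like effects. Same-numbered replicates did not deviate together, with correlations of -0.09 to 0.08 between the groups. Replicate pairs differed by more than sampling noise, with a chi-square of 2.50 to 35.2 per gene.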

Additional observations from a re-analysis of the deposited data

Results flagged for a closer look

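Among 60 summed list levels of the day 7 groups, 3 had 1 library far from the other 3 of its group, and chance flags about 1 in 20. The sum of HIF targets outside glycolysis was 3469 CPM in replicate 3 of the control cultures, against 3557 to 3566 CPM in the other 3. The oxygen sensing sum was 620.6 CPM in replicate 4 of the roxadustat cultures, against 634.2 to 635.0 CPM in the other 3. The sum for loop, distal tubule and collecting duct was 21.01 CPM in replicate 2 of the roxadustat cultures, against 8.18 to 9.94 CPM in the other 3.

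The genes that the rule for opposite effects names were flagged for an effect that differed between culture and fresh cells (edgeR). The rule takes only called interactions with opposite effects, so this difference was fixed by the choice and tests nothing. On the log2 scale the interaction was 4.69 for Hmox1, 2.93 for Hr, a transcriptional corepressor, 2.76 for Cfap54, a protein of cilia, and 2.56 for D630023F18Rik, which is of unknown function and had 39 and 13 counts in all in roxadustat and control cultures. It was 2.53 for Amz1, a metalloprotease.

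It was -8.10 for Wfdc17, a secreted protein of activated macrophages with 13 counts in all in roxadustat cultures. It was -7.51 for Serpinb2, a plasminogen activator inhibitor that shares 12.4% of its exon length with Serpinb10, and -7.49 for Ccl6. It was -7.34 for Lyz2, -5.39 for Fcna, a macrophage ficolin with 7 counts in all in roxadustat cultures, and -4.33 for Mirg, an imprinted non-coding RNA. With group weights the day 0 effects of Serpinb2 (adjusted p = 0.167) and Mirg (0.241) were not called.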

How the results depend on the processing

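The 2 libraries per group at day 0 limit the counts that use the day 0 effect. With group weights that effect was called higher in 205 and lower in 355 genes, and opposite effects in 140 (higher at day 7) and 77 (lower at day 7). At an adjusted p of 0.01 the 4 counts were 262, 348, 116 and 101. With a fold of at least 2 they were 200, 131, 17 and 67, the interaction was higher in 1218 and lower in 937, and the day 7 effect higher in 1337 and lower in 1148. Leaving out each library in turn gave interactions higher in 2421 to 2853 and lower in 2035 to 2467 genes, and day 7 effects higher in 4107 to 4634 and lower in 4047 to 4551. It gave day 0 effects higher in 299 to 639 and lower in 269 to 975, and opposite effects in 113 to 371 and 142 to 255. The lowest day 0 and opposite counts came without replicate 1 of the fresh roxadustat cells and the highest without replicate 1 of the fresh controls, and without replicate 2 of the fresh roxadustat cells 502 were lower at day 0. The cause was not tested. A lone day 0 library was assumed to vary like the other groups.

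With replicate numbers as a block, 5377 interactions were called, and 97.1% of the main calls were kept in direction. With the block Cd74 was called higher (1.39, adjusted p = 0.0305, edgeR), and 4 of the 7 mitochondrially encoded genes were lower, against 2 without it. The labels do not say whether the numbers pair the samples. The other scalings, filters and tools moved the interaction counts by less than 1.5 times, and another scaling moved the median interaction of the genes tested to between 0.01 and 0.06, against 0.05. Without replicates 1 and 2 of the roxadustat cultures, chosen after seeing the data, the interaction reversed for Kap (-3.73, adjusted p = 8.34e-09), Slc34a1 (-3.96, 0.000292) and Umod (-4.42, 0.00036, edgeR).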
